A study of Mus musculus with 2 samples.

Results

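The genes described are 9 transcripts used as markers of injury and failed repair of the kidney tubule: Havcr1, Lcn2, Clu, Sprr2f, Wfdc2, Tff3, Gdf15, Prom1 and Cd24a. They were found on the array by gene name among the non-control spots, which gave 12 of 41174 probes. Of the 9 genes, 8 passed a filter on dim probes, among 16698 genes that did. All RNA came from kidney of male CD-1 mice, 7 weeks old when a feeding period of 1 week began. The basal diet was AIN-93G with 0.2% adenine by weight in both groups, a diet that leads to crystals in the tubules. One group ate this diet alone. In the other, 2% by weight of the phenolic acid HMPA, 3-(4-hydroxy-3-methoxyphenyl)propionic acid, was mixed in. By the sample titles the age was 12 weeks and the mice numbered 5, which may be per diet or in all, and pooling of RNA is not mentioned. Each of 2 dual-colour arrays carried RNA of both conditions, 1 RNA sample each. On array 1 Cy3 (green) marked adenine alone and Cy5 (red) marked HMPA, and array 2 had the dyes the other way round. Mice without adenine were not part of the comparison, so a ratio does not show what adenine itself did to a gene.

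Markers of tubular injury are read in kidney and urine because the healthy tubule makes little of most of them. KIM-1, the product of Havcr1, is a membrane protein of the injured proximal tubule cell that binds phosphatidylserine on dying cells, lets the tubule cell engulf them, and is shed from the surface into urine. NGAL, the product of Lcn2, is a secreted lipocalin that binds iron-carrying siderophores. It is made by injured cells of the thick limb and collecting duct, and neutrophils store it in granules. The other genes encode a secreted chaperone (Clu), a stress cytokine (Gdf15), secreted proteins of mucosal surfaces (Wfdc2, Tff3), an envelope protein of squamous cells (Sprr2f) and surface proteins of progenitor-like tubule cells (Cd24a, Prom1).

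The probes behind the Havcr1, Lcn2 and Gdf15 results are shown because the directions of these genes differ and each value rests on what its probe can bind. Each is 60 bases long, 5′ to 3′ as deposited, and no base is singled out by capitals.
Havcr1 A_51_P371740: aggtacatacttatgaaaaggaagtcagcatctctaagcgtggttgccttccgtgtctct
Havcr1 A_51_P371745: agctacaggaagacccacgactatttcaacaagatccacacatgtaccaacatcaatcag
Lcn2 A_51_P510156: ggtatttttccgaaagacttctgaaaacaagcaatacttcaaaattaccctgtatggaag
Gdf15 A_52_P532982: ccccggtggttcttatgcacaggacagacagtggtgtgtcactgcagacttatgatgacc
The 2 Havcr1 probes lie on the plus strand of chromosome 11 of build mm9, A_51_P371740 at chr11:46587247-46592034 and A_51_P371745 at chr11:46569677-46569736. A_51_P371740 covers 4788 bases of genome with its 60 bases, so it spans a gap in its alignment. The positions are 17510 bases apart, and the sequences share no run longer than 6 bases, so the probes read separate stretches of the transcript. The Lcn2 probe lies on the minus strand at chr2:32241037-32241281, also across a gap, and the Gdf15 probe on the minus strand at chr8:73153471-73153530. Whether a probe lies in an exon or a UTR is not assigned, since mm9 annotation was not used here. No probe of the 9 genes shared a word of 20 bases with a probe of another gene. That compares probes with probes, not with transcripts, so it does not show which other transcripts a probe can bind.

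With HMPA, the 2 best known markers lay on opposite sides: Havcr1 was 2.10-fold higher and Lcn2 was 7.89-fold lower than with adenine alone. Clu, Cd24a, Wfdc2 and Gdf15 were lower too, by 4.25-, 3.44-, 2.88- and 2.06-fold. Prom1 and Sprr2f lay between these, at less than 2-fold lower, and Tff3 could not be measured. Taken as 1 RNA sample per condition, the arrays allow no test, so "higher" and "lower" follow a rule of size. The arrays had to average a difference of 2-fold or more, and each array had to show 1.5-fold or more with the same sign. By this rule 1 of the 8 measured genes was higher and 5 were lower. Of all 16698 genes, 6.64% were higher and 7.72% lower. These ratios were normalised by loess, which removes the dependence of the ratio on signal within an array. With median centring, which only sets the median log ratio of each array to 0, none of the 8 genes was higher and 5 were lower, against 4.49% and 11.8% of all genes. The median log2 ratio was −1.29 over the 8 genes and −0.04 over all genes. The dye contrast, where the conditions cancel out, is 1 value per gene, so only the 2-fold part of the rule applied. With loess it gave 0 genes. It was not computed with median centring, so it does not bear on that choice. Each value after ± is the distance of either array from their mean. With the arrays taken as 1 RNA sample per condition, this distance covers the hybridisation and the dye, not differences between mice.

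**Figure D1:**
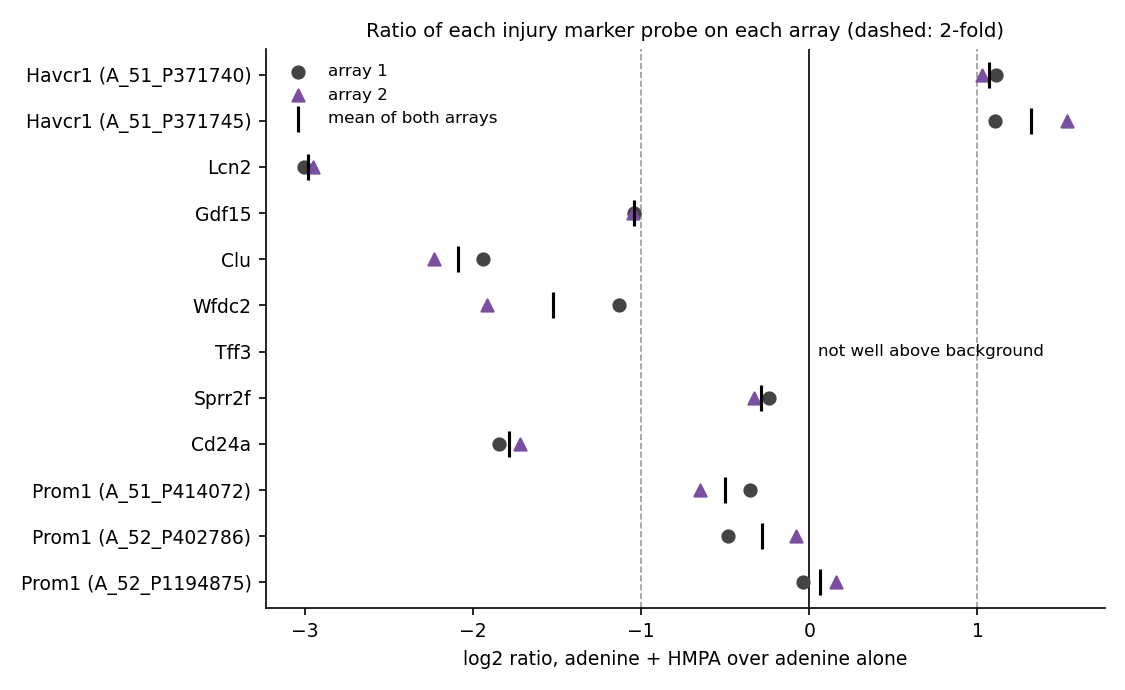
Log2 ratio of HMPA over adenine alone (horizontal axis) for each probe of the injury markers on array 1 (circles) and array 2 (triangles), with their mean (bars). Both Havcr1 probes sit above 1 on both arrays, Lcn2 sits near −3, and the Prom1 and Sprr2f probes sit between −1 and 0.2.

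Havcr1 had signals of 485 and 486 intensity units with adenine alone on arrays 1 and 2, and 581 and 1047 with HMPA, at probe A_51_P371740. The 4 values did not overlap between the conditions, but on array 1 they lay close together before the dyes were balanced. After background correction and loess normalisation the log2 ratio was 1.11 on array 1 and 1.03 on array 2 (1.07 ± 0.04). Probe A_51_P371745 gave 340 and 303 with adenine alone and 403 and 932 with HMPA. Its ratio was 1.10 on array 1 and 1.53 on array 2 (1.32 ± 0.21). Both probes were well above background in all 4 channels, whose local background was 20 to 25.5. Between the probes the ratio differed by −0.01 on array 1 and by 0.50 on array 2, so they gave the same direction and met the rule alike.

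The size of the Havcr1 difference depended on how the dyes were balanced. With median centring in place of loess, A_51_P371740 gave 0.51 and 1.01 (mean 0.76) and no longer met the rule. A_51_P371745 gave 0.50 and 1.49 under that scaling (mean 0.99) and missed it too. For both probes the mean lay below 2-fold and array 1 below the 1.5-fold asked of each array. The median over all genes was −0.04 with loess and −0.22 with median centring. Relative to that median, Havcr1 was 1.11 higher with loess and 0.98 higher with median centring. With the ratios of Feature Extraction, the scanner's own software, the probes gave 1.20 and 1.55. Havcr1 was above 0 on both arrays under every setting run, and 1007 genes (6.03%) had a higher ratio.

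**Figure D2:**
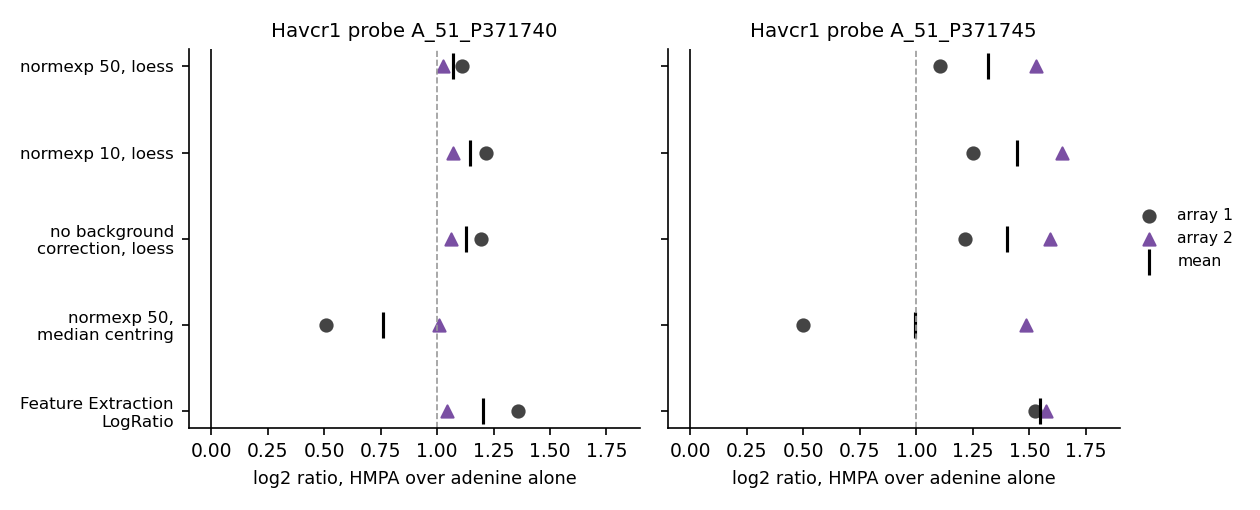
Log2 ratio of HMPA over adenine alone (horizontal axis) for the 2 Havcr1 probes under 5 ways of processing, for array 1 (circles), array 2 (triangles) and their mean (bars); the dashed line is 2-fold. All values lie above 0, and median centring gives the lowest means, 0.76 and 0.99.

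Lcn2 had signals of 4095 and 4259 with adenine alone, against 265 and 571 with HMPA. The conditions were far apart on both arrays, and the ratios were −3.00 and −2.95 (−2.98 ± 0.03). Only 27 of the 16698 genes (0.162%) had a lower ratio. Havcr1 and Lcn2 differed by 4.12 on the log2 scale on array 1 and by 3.98 on array 2, a difference within an array that a constant shift of its ratios leaves as it is. Havcr1 stood above each of the other 7 measured genes on both arrays, by 1.35 (Sprr2f, array 1) or more.

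Clu, whose product binds unfolded proteins outside the cell and is raised in damaged tubules, had signals of 39294 and 36723 with adenine alone and 7082 and 10140 with HMPA. The ratios were −1.94 and −2.23 (−2.09 ± 0.15). Gdf15, a cytokine of the transforming growth factor beta superfamily induced by cell stress, had 1818 and 1590 with adenine alone and 482 and 798 with HMPA. Its ratios were nearly identical on the arrays, −1.04 and −1.05, and 1194 genes (7.15%) lay lower, so it stood close to the edge of the rule. Neither gene's signals overlapped between the conditions, but nor did those of Sprr2f or the brightest Prom1 probe, which missed the rule. How many of all genes show no overlap was not counted.

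Wfdc2 encodes HE4, a small secreted protein with the fold of protease inhibitors. It had signals of 41461 and 38252 with adenine alone and 13456 and 13325 with HMPA. The ratios, −1.13 and −1.92, lay farther apart than those of any other member (−1.53 ± 0.39), and array 1 alone still met the rule. Tff3, a trefoil peptide that aids repair of mucosal surfaces, had 35.1 and 23.4 with adenine alone and 21.9 and 35.3 with HMPA. No channel was well above background, so no ratio is given. Sprr2f, a small proline-rich protein of the cornified envelope, had 96.2 and 85.7 with adenine alone and 39.1 and 63.9 with HMPA. All 4 channels were above background, yet its ratio after normalisation was −0.24 and −0.33 (−0.29 ± 0.04), 1.22-fold lower, and it did not meet the rule.

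Cd24a encodes a lipid-anchored surface protein of developing and injured epithelium. It had signals of 12085 and 9915 with adenine alone and 2122 and 3554 with HMPA, and ratios of −1.84 and −1.72 (−1.78 ± 0.06). Prom1, encoding CD133, a protein of membrane protrusions, had 478 and 526 with adenine alone and 185 and 326 with HMPA at its brightest probe. The ratios there were −0.35 and −0.65 (−0.50 ± 0.15), short of the rule. A second Prom1 probe gave −0.28 ± 0.20, with signals of 177 and 163 that nearly met on array 2. The third, dim in 1 channel, gave −0.04 and 0.16 (0.06 ± 0.10). The Prom1 probes thus did not share a direction, and the gene's value is that of 1 probe.

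**Figure D3:**
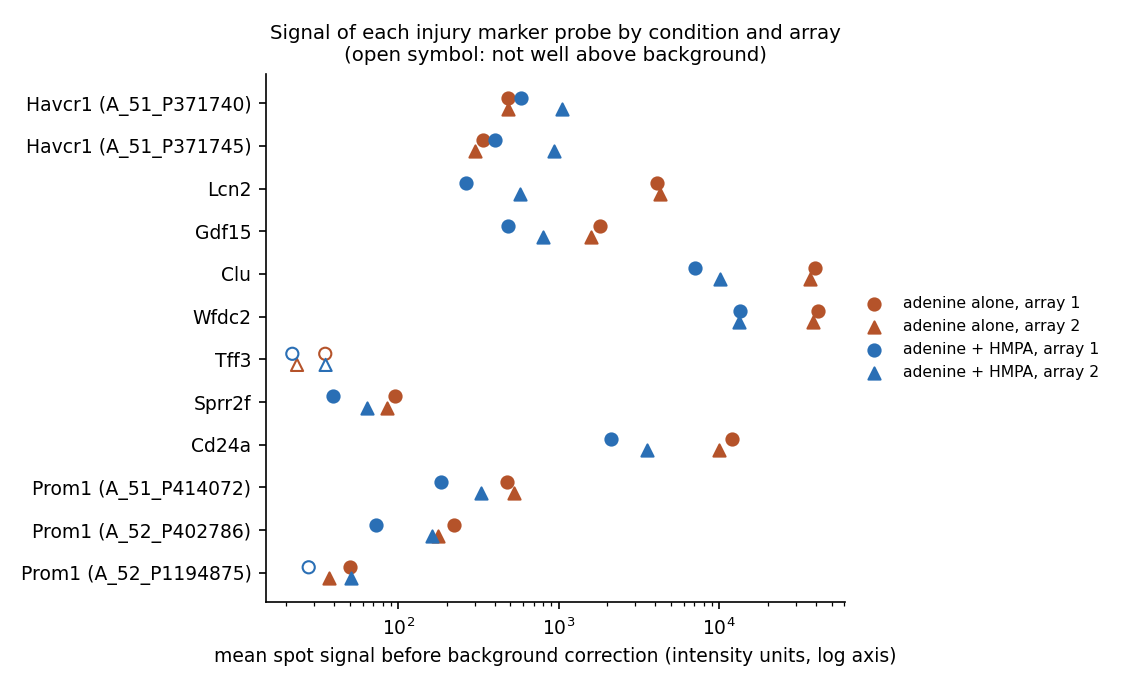
Mean spot signal before background correction (horizontal axis, log scale) for each probe of the 9 genes with adenine alone (brown) and with HMPA (blue) on array 1 (circles) and array 2 (triangles); open symbols are not well above background. For Lcn2, Gdf15, Clu, Wfdc2 and Cd24a the conditions are apart on both arrays. The same holds for Havcr1 and for Sprr2f and the brightest Prom1 probe, which missed the rule. For Tff3 all 4 symbols are open.

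The lower markers stood at different ranks among all genes. Behind Lcn2 in that order came Clu, with 193 genes (1.16%) below it, Cd24a with 333 (1.99%) and Wfdc2 with 527 (3.16%). The measured members spanned 4.05 log2 units from Lcn2 to Havcr1, against distances between array and mean of 0.0046 to 0.39. With median centring, relative to its own median of all genes, Lcn2 was −3.01, Clu −1.84, Cd24a −1.66, Wfdc2 −1.25 and Gdf15 −1.10. These 5 genes stayed lower by the rule under every setting run. Settings that only change the filter or average the probes could not alter them, since each has 1 probe above background in all 4 channels.

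**Figure D4:**
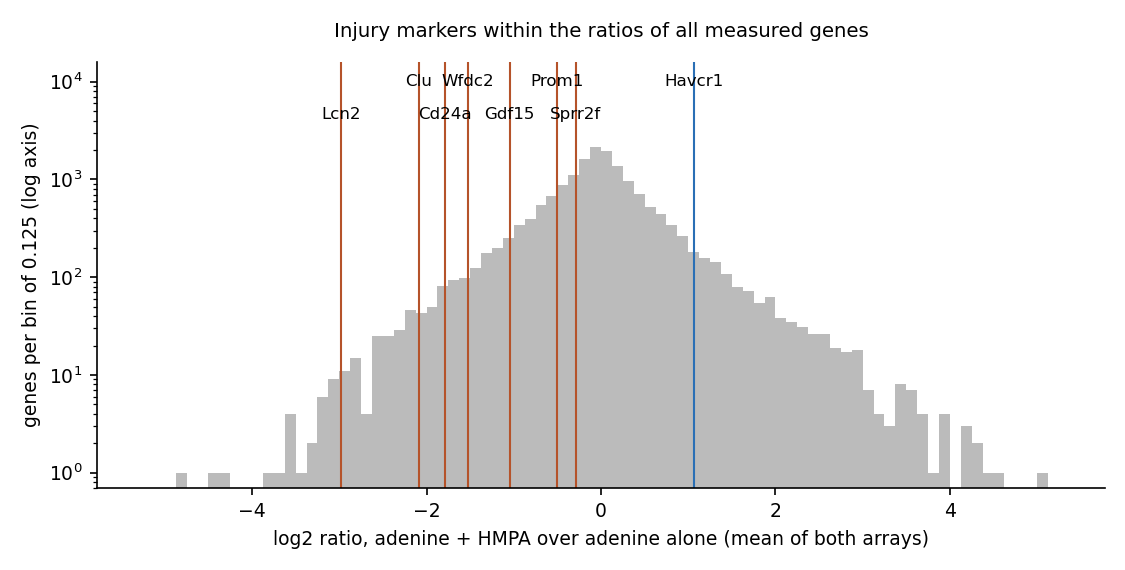
Number of genes (vertical axis, log scale) by log2 ratio of HMPA over adenine alone (horizontal axis) for 16698 genes, with lines at the 8 measured injury markers. Havcr1 is the 1 marker to the right of 0, at 1.07, and Lcn2 lies farthest left, at −2.98.

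Close relatives of the markers did not all go the way of their family's marker. Timd2, which encodes another T-cell immunoglobulin and mucin (TIM) protein like KIM-1, was 3.87-fold higher (1.95 ± 0.21), from signals of 306 and 298 with adenine alone to 580 and 1452 with HMPA. Its second probe gave 0.88, short of the rule. Its brighter probe, on the minus strand of the same chromosome at chr11:46490788-46491711, is shown for comparison with the Havcr1 probes.
Timd2 A_51_P500906: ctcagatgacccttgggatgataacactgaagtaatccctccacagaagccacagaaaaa
The longest run that any Havcr1 probe shared with a probe of its relatives was 7 bases, and binding to the relatives' transcripts was not tested. Havcr2, encoding the immune checkpoint TIM-3, was lower (−1.15 ± 0.19). It gave −1.80 with the ratios of Feature Extraction, and −0.97 on array 1 alone, which misses the rule. Timd4 was not above background.

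Prom2, the relative of Prom1, was 2.49-fold higher (1.32 ± 0.12, and 2.06 with the ratios of Feature Extraction). Among the relatives of Wfdc2 that carry the whey acidic protein domain, Wfdc15b (2.69 ± 0.06) and Wfdc15a (1.82 ± 0.28, and 3.15 with the ratios of Feature Extraction) were higher. Wfdc17 (−2.51 ± 0.14), Slpi, an inhibitor of neutrophil elastase (−2.38 ± 0.10), and Wfdc18 (−2.08 ± 0.48, and −2.86 with the ratios of Feature Extraction) were lower. Wfdc21, not well above background with HMPA, was at least 1.60-fold lower. It met the rule as lower under 4 of the alternatives (−3.93 with the ratios of Feature Extraction). Wfdc3, Wfdc1 and Wfdc12 gave 0.26, 0.13 and −0.07, and Wfdc12 was dim with HMPA on array 2. Wfdc3 gave 1.25 with the ratios of Feature Extraction, and Wfdc1 turned below 0 with median centring (−0.12). Of the small proline-rich genes, Sprr2a1 met the rule as lower (−1.02 ± 0.05), but its other probe gave −0.03 and it missed the rule under 6 of the alternatives. The other 6 measured Sprr genes, Sprr1a, Sprr2b, Sprr2e, Sprr2g, Sprr2k and Sprr4, gave −0.45 to 0.33. Sprr4, dim with HMPA on array 1, gave −2.38 with the ratios of Feature Extraction, which meets the rule. The sign of Sprr1a, Sprr2e, Sprr2g and Sprr2k turned with median centring.

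Of 8 other lipocalins with names in Lcn, 6 were not above background in either condition on both arrays. Lcn9, dim with adenine alone on array 1, gave 0.03, and Lcn10 was not well above background with HMPA. Tff1 gave 0.55 ± 0.07 and met the rule as higher under 3 of the alternatives (1.53 with the ratios of Feature Extraction), and Tff2 was not above background. Of the growth differentiation factors, Gdf1 gave −0.85 ± 0.21 and met the rule under 6 of the alternatives, among them median centring (−1.18). Gdf6, not well above background with HMPA, was at least 1.62-fold lower. It met the rule as lower under 4 of the alternatives (−3.17 with the ratios of Feature Extraction). Gdf10 gave 0.25, and Gdf5, Gdf7, Gdf9 and Gdf11, the last dim with HMPA on array 1, gave −0.08 to 0.02.

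Genes whose products bind, take up or cut the marker proteins were measured for 12 of 15 listed. Of these, 2 were higher and 1 was lower (median −0.02). These are 16.7% and 8.33%, against 6.64% and 7.72% of all genes, so the share lower was near that of all genes. Lrp2 encodes megalin, the uptake receptor of the proximal tubule that takes NGAL and clusterin from the filtrate. It was 6.63-fold higher (2.73 ± 0.07), and its other probes gave 1.51 to 2.14. Slc22a17, the other NGAL receptor, gave 0.33 ± 0.06. Trem2, a lipid and clusterin receptor of macrophages, was 9.19-fold lower (−3.20 ± 0.11, with −1.56 at its other probe). Vldlr, a receptor that also binds clusterin, was higher (1.07 ± 0.13, with 1.32 at its other probe). It missed the rule with median centring (0.89) and on array 2 alone (0.94). Lrp8 gave −0.15.

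Of the surface proteases that cut KIM-1 and like proteins, Adam10 gave −0.03 and Adam17 −0.83 (−1.16 with median centring, which meets the rule). The other Adam17 probe gave −1.07. Mmp9, which NGAL binds and which was dim with HMPA on array 1, gave −0.49 ± 0.23. It met the rule as lower under 3 of the alternatives (−2.06 with the ratios of Feature Extraction). Siglecg, a receptor for CD24 that was also dim with HMPA on array 1, gave 0.01. Hdac6 and Ctnnb1, partners of CD133, gave 0.18 and −0.39, but Hdac6 turned to −0.11 with median centring. Fcgbp, which binds trefoil peptides in mucus, gave −0.02. Ret, the signalling partner of the Gdf15 receptor, and Siglece were not above background, and Gfral, that receptor, was not analysed here.

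Most other tubular injury genes were lower, as Lcn2 was. Of 40 such genes, a list without the 9 markers, 31 were lower and 0 higher (median −1.65). For this list and those below, the shares of all genes were 7.72% lower and 6.64% higher. The lowest were Spp1, encoding osteopontin (−3.55 ± 0.0036), Timp1, an inhibitor of matrix proteases (−3.35 ± 0.15), and Vcam1, an adhesion molecule of tubule cells that failed to recover (−2.92 ± 0.24). The other probes of Timp1 and Vcam1 gave −2.39 and −1.38. Hmox1 (0.56) and Fga (0.53), chosen after their values were seen, were the only genes of the list above 0, and neither met the rule. In whole kidney, fewer cells of a type and less RNA per cell cannot be told apart.

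KIM-1 is 1 of several receptors for phosphatidylserine, and of 18 measured genes of these receptors and their bridging proteins 8 were lower and 1 higher (median −0.91). Cd36, a receptor for lipids and dying cells, was 4.19-fold higher (2.07 ± 0.25). Cd300lf (−2.42 ± 0.39) and Stab1 (−2.12 ± 0.09), both receptors of myeloid cells or macrophages, were lower at their brighter probes. Their other probes gave −0.42 and −0.32, which miss the rule.

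Lcn2 is a target of STAT3 and NF-kappaB, and of 18 measured acute phase genes and targets of these factors 14 were lower and 0 higher (median −1.54). Haptoglobin (Hp, −3.65 ± 0.11), complement C3 (−3.51 ± 0.23) and ceruloplasmin (Cp, −3.03 ± 0.06) were the lowest. A second probe gave −0.65 for C3, short of the rule, and −1.32 for Cp. Gdf15 is induced by the integrated stress response and by p53. Of 15 stress response genes 3 were lower and 1 higher (median −0.37): Ddit4 at −2.55 ± 0.22 and Nupr1 at −2.06 ± 0.23 were lower, and Psat1, of serine synthesis, was higher at 1.45 ± 0.24. Of 16 p53 targets 4 were lower and 0 higher (median −0.37), with Phlda3 at −1.90 ± 0.01, Bbc3 at −1.74 ± 0.02 and Cdkn1a at −1.34 ± 0.16. Another 4 of the 16 lay above 0, short of the rule.

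Epithelial genes of mucosal and squamous surfaces, the setting of Wfdc2, Tff3 and Sprr2f, were lower for 6 of 13 and higher for 0 (median −0.91). Slpi, given above, Cldn7, a tight junction protein (−1.74 ± 0.06), and Krt7, a keratin of simple epithelia (−1.36 ± 0.13, with −0.99 at its other probe), were the lowest. Genes of progenitor-like tubule cells, the setting of Cd24a and Prom1, were split, 4 of 12 higher and 4 lower. Their median was 0.16 with loess and −0.01 with median centring, where 1 was higher. Vcam1, Sox9, a factor of tubule regeneration (−2.85 ± 0.24), and Akap12 (−2.57 ± 0.28) were the lowest.

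**Figure D5:**
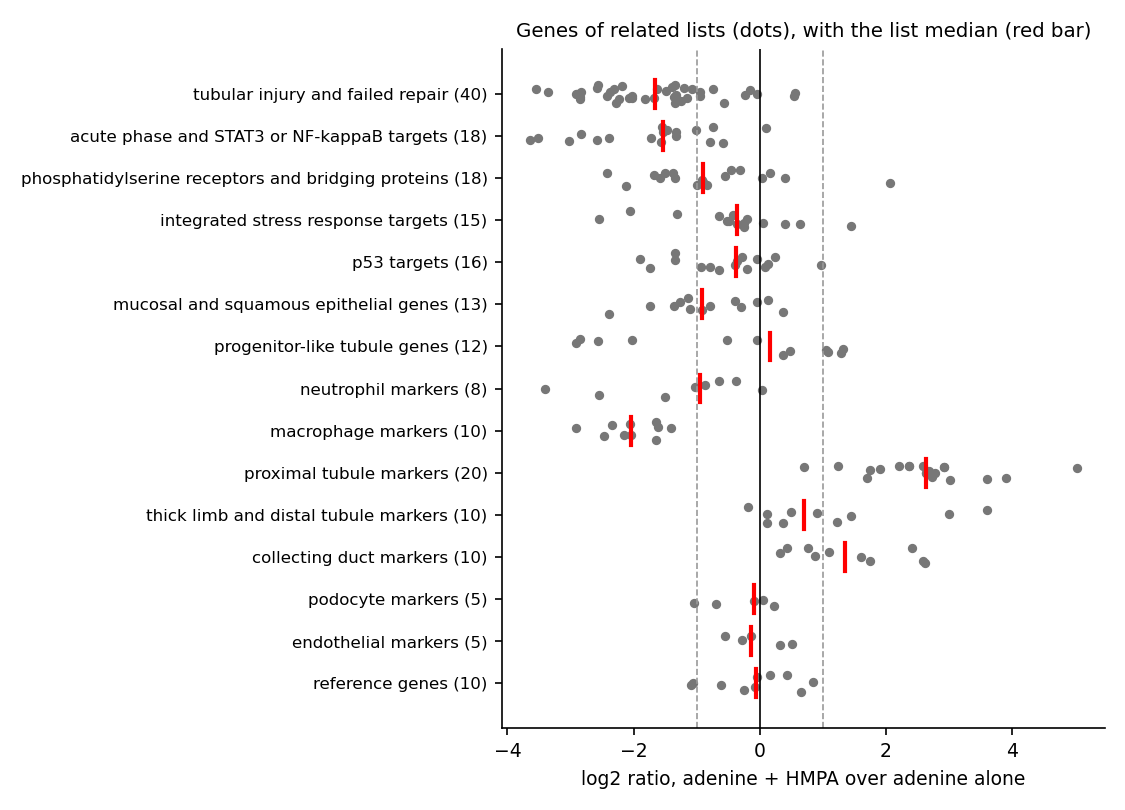
Log2 ratio of HMPA over adenine alone (horizontal axis) for each measured gene (dots) of 15 gene lists, with list medians (red bars) and the number of genes in parentheses; dashed lines are 2-fold. Tubular injury genes have a median of −1.65 and macrophage markers −2.05, while proximal tubule markers have a median of 2.63.

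Markers of the cells that could carry these transcripts moved as well. Of 20 proximal tubule markers 19 were higher and 0 lower (median 2.63), among them Slc7a13, an amino acid transporter (5.03 ± 0.0026), Kap (3.90 ± 0.11) and Slc22a7, an organic anion transporter (3.61 ± 0.32). Havcr1 is a gene of injured cells of this segment, and a link between its ratio and these markers was not tested. The summed normalised intensity of the 20 markers was 68554 and 91897 with adenine alone and 527683 and 553324 with HMPA. Macrophage markers were lower for 10 of 10 (median −2.05), with Lyz2, encoding lysozyme, at −2.91 ± 0.10 (−1.82 at its other probe), C1qc at −2.47 ± 0.08 and Mrc1 at −2.34 ± 0.26. Their sum was 74638 and 73304 with adenine alone and 12170 and 10524 with HMPA.

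Neutrophils hold NGAL, so their markers stand beside the Lcn2 result. Of 8 measured, 4 were lower and 0 higher (median −0.94), with S100a9 (−3.40 ± 0.17), S100a8 (−2.55 ± 0.24) and Retnlg (−1.02 ± 0.12) as the lowest that were above background in all 4 channels. Retnlg gave −0.90 on array 1 alone, which misses the rule, and −2.83 with the ratios of Feature Extraction, where S100a8 gave −3.43. The granule genes Ngp, Camp and Elane were not above background, and Mpo and Ltf, also of granules, gave 0.04 and −0.37. The summed normalised intensity of the 8 was 7043 and 5952 with adenine alone and 1060 and 983 with HMPA. The part of the shifts in cell markers in the ratios of Havcr1, Lcn2 and the other injury genes was not tested.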

How the data were processed

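Kidney RNA of mice fed adenine with or without HMPA was measured on 2 dual-colour Agilent arrays, from 1 slide and 1 scan time, taken as 1 RNA sample per condition hybridised a second time with swapped dyes. This leaves no residual degree of freedom, so there are no p-values. Per the labels' protocols, QIAzol was used for extraction and T7 priming for labelled cRNA. The authors quantified the scans, per the file headers, by Feature Extraction 12.2.0.7. Version 9.5 is named in the submitters' processing notes. The deposited signal and background columns hold intensity, not normalised. The deposited ratio column gives red over green as log10, with background subtracted and dyes normalised by Feature Extraction. The authors' value table equals that log10 column within 0.00498 (array 1) and 0.00499 (array 2), with column medians of 0. The other deposited columns used are flags of Feature Extraction, which per the file headers mark control, unreliable and well above background spots.

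Of 45018 spots per array, 1639 were controls, and 281 and 297 of 43379 gene spots were marked unreliable. No gene spot was saturated, and 57.9% to 67.9% per channel were well above background, which sets the depth. Repeat spots of 245 probes, 10 each, differed by a median SD of 0.10 and 0.09 (log2). Only 2 arrays limit the precision.

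limma 3.58.1 in R 4.3.3 corrected background by normexp (offset 50) and normalised ratios by loess within each array, with weight 0 for control and unreliable spots. Ratios are HMPA over adenine alone, averaged over the spots of a probe. The filter kept 25137 of 41174 probes, those for which 1 condition was well above background on array 1 and on array 2. The probe of highest mean signal stands for its gene. RefSeq gave current names to 21373 kept probes through accessions, to 1932 through symbols and to 8 through older symbols, and the file's name stands for 1824. For a gene dim in 1 condition the fold is a bound ("at least"), set against its own signal or the background floor, whichever was higher. Counts and figures used Python 3.11.15, with pandas 2.3.3, numpy 2.4.6 and matplotlib 3.10.9. The procedure was tested on simulated data. Members, lists, the rule of size and the alternatives were chosen with earlier results of these data known. Genes named were all 9 members, all measured relatives and partners, and of each other list up to 3 with the largest ratios among those meeting the rule with all 4 channels above background, or the 2 largest if none did. Alternatives were offset 10, no background correction, median centring, Feature Extraction's ratios, the value table, the mean over probes, 2 other filters and each array alone.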

Additional observations from a re-analysis of the deposited data

How the results depend on the processing

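Lcn2, Clu, Wfdc2, Cd24a and Gdf15 kept their direction and stayed lower by the rule under every alternative, and Prom1 and Sprr2f stayed below 0 and short of it. All of these but Prom1 have 1 probe, above background in all 4 channels. For them the mean over probes and the 2 other filters could not change the value. The value table repeats Feature Extraction's ratios, so these 2 are not separate alternatives in any count given here. Over all alternatives Lcn2 ranged from −3.23 to −2.95, Clu from −2.23 to −1.86, Cd24a from −1.88 to −1.72, Wfdc2 from −1.92 to −1.13, Gdf15 from −1.32 to −1.04, Prom1 from −0.83 to −0.24 and Sprr2f from −0.64 to −0.24. With median centring Havcr1 fell short of the rule at 0.76, as did its probes A_51_P371740 (0.76) and A_51_P371745 (0.99), so 0 members were higher. The cause was not tested. Median centring also gave 749 genes higher and 1973 lower in all, against 1109 and 1289. Feature Extraction's ratios gave 2043 and 2461, and with the authors' deposited values there were 2040 and 2459. Either array alone gave Havcr1 ratios of 1.03 and 1.11, 1.10 and 1.53 for probe A_51_P371745, 1 member higher and 5 lower, and among all genes 1154 to 1254 higher and 1283 to 1485 lower. No paired analysis was made because the 2 arrays were taken as a dye swap of the same 2 RNA samples, which leaves no fit with residual degrees of freedom. The ratio of Sprr2f, a dim probe, is limited by signal over background.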

Other observations

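Some markers of segments other than the proximal tubule were also higher with HMPA. Of 10 thick limb and distal tubule markers 4 were higher and 0 lower (median 0.70), with Egf, the epidermal growth factor of the distal nephron, at 3.60 ± 0.01, Pvalb at 3.00 ± 0.13 (4.20 with Feature Extraction's ratios) and Calb1 at 1.45 ± 0.10. Of 10 collecting duct markers 6 were higher and 0 lower (median 1.35), among them Slc4a1 (2.61 ± 0.17, or 3.54 with Feature Extraction's ratios) and Slc26a4 (2.42 ± 0.05), anion exchangers of intercalated cells, and the water channel Aqp3 (2.59 ± 0.30). Whether these shifts bear on the Lcn2 ratio was not tested.

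Among podocyte markers 1 of 5, Synpo (−1.04 ± 0.10), was lower and 0 higher. A second Synpo probe gave 0.06, so that call rests on 1 probe. The podocyte median of −0.09 turned to 0.01 with Feature Extraction's ratios. None of 5 endothelial markers met the rule, with Emcn at −0.55 and Kdr at 0.51 the farthest from 0. The 10 genes commonly used as references were not all level: Rplp0 (−1.08 ± 0.36) and Actb (−1.06 ± 0.05) were lower by the rule, the median was −0.06, and Pgk1 gave 0.85. Rplp0 missed the rule under 6 of the alternatives, among them median centring (−0.95).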
